A study of Mus musculus with 6 samples.

Results

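Tight junctions seal the gap between neighbouring cells, and this account follows 9 genes of these junctions in mouse embryonic endothelium. They are Lsr, Marveld2, Ocln, Cldn5, Tjp1, F11r, Jam2, Jam3 and Esam, found by symbol among the 23420 genes of the deposited count table, and 9 of 9 were present and abundant enough to test. RNA was sequenced from sorted endothelial cells of whole embryos at embryonic day 12.5, with 3 libraries of tdTom+ and 3 of tdTom- cells. Every embryo carried Csf1r-iCre, a Cre recombinase under the promoter of the myeloid receptor gene Csf1r, and a Rosa26 reporter that makes tdTomato after recombination, so both groups share this genotype. The tdTom+ cells have a history of Cre activity in themselves or in an ancestor, and the tdTom- cells do not show it. The sort kept cells with PECAM1 on their surface and without CD45, CD11b or KIT. All 10 genes of an endothelial marker list had at least 192 counts in every library, and their summed level was 7424 to 7815 CPM (counts as a share of the scaled library size) in tdTom+ and 7275 to 7488 CPM in tdTom- libraries.

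A tight junction is built from transmembrane strands of claudins and occludin, which are held to the actin cytoskeleton by scaffold proteins such as ZO-1, the product of Tjp1. Where 3 cells meet, the strands turn and form a tricellular contact, which is marked by angulin-1, the product of Lsr, and by tricellulin, the product of Marveld2. Claudin-5, the product of Cldn5, is the leading claudin of endothelium and is required for a tight blood-brain barrier. The junctional adhesion molecules JAM-A, JAM-B and JAM-C, encoded by F11r, Jam2 and Jam3, and the related protein of Esam are immunoglobulin-type adhesion proteins beside the strands. JAM-A, JAM-C and ESAM are also found on platelets.

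The 250 bases before the start sites of 4 members are shown because they include both members with the largest decreases, Lsr and Ocln, beside the other tricellular gene, Marveld2, and the leading endothelial claudin gene, Cldn5. The sequences are from RefSeq (build GRCm38.p6, the mm10 genome), which held 6 of the 9 members. They lie at chr7:30973470-30973719 for Lsr, chr13:100552719-100552968 for Ocln and chr13:100616972-100617221 for Marveld2, all on the minus strand, and at chr16:18776597-18776846 on the plus strand for Cldn5. Each reads 5′ to 3′ in the direction of the gene and ends just before the start site. Capitals mark matches on either strand to CAGGTG, the E-box of Snail and ZEB factors, to GGGCGG, the GC box, to CCGGAAG, an ETS-type site, or to CTTTGAT, a TCF/LEF-type site.
Lsr: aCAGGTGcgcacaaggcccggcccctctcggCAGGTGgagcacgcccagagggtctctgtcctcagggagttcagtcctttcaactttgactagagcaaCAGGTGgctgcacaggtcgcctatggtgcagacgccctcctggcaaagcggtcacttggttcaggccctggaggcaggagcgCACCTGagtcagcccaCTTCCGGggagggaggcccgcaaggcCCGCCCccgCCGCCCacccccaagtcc
Ocln: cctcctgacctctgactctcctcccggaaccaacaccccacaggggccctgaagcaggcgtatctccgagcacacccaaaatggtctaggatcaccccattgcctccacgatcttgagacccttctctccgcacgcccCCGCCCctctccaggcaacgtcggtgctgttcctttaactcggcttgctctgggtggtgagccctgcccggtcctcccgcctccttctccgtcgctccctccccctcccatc
Marveld2: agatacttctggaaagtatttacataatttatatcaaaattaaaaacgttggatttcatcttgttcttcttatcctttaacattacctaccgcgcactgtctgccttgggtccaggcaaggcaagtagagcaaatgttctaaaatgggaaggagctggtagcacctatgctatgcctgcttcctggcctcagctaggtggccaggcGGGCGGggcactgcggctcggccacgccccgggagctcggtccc
Cldn5: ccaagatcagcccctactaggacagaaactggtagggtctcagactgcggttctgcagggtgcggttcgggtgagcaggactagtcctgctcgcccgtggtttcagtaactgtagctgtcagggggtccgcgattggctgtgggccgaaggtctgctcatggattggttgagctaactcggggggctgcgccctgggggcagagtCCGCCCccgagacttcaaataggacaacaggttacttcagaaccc

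The Lsr window held 4 matches to CAGGTG, 2 to GGGCGG and 1 to CCGGAAG, while the windows of Ocln, Marveld2 and Cldn5 each held 1 match to GGGCGG and 0 to the other motifs. No marked matches overlapped. At least 1 match to CAGGTG was present in 17.2% of 32851 promoter windows of the same length, to GGGCGG in 32.7%, to CCGGAAG in 6.91% and to CTTTGAT in 3.21%. A count of 4 or more CAGGTG matches was present in 14 windows, or 0.0426%. The same share was 4.09% for GGGCGG, 0.0183% for CCGGAAG and 0% for CTTTGAT. The cutoff of 4 is the count of the Lsr window itself, which is among the 14, so this share is no test of Lsr. The 4 windows held 10 to 14 CpG dinucleotides, against a median of 6 over all windows. These matches describe the letters only, and no binding was measured.

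Lsr was lower in tdTom+ cells and was the only one of the 9 genes whose difference passed the test (1 of 9, against 1.58% of all 13142 genes tested in either direction). Ocln and Jam2 had differences of 2.19-fold and 1.64-fold in the same direction that did not pass. Cldn5, Tjp1, F11r, Jam3 and Esam differed by at most 1.13-fold in either direction. The median log2 fold change, tdTom+ minus tdTom-, was -0.15 over the 9 genes and -0.0003 over all genes tested, and 7 of the 9 were below 0 against 6575 of 13142. The CPM of the groups did not overlap in 3 of the 9 genes, Lsr, Ocln and F11r, against 17.2% of all genes tested.

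**Figure D1:**
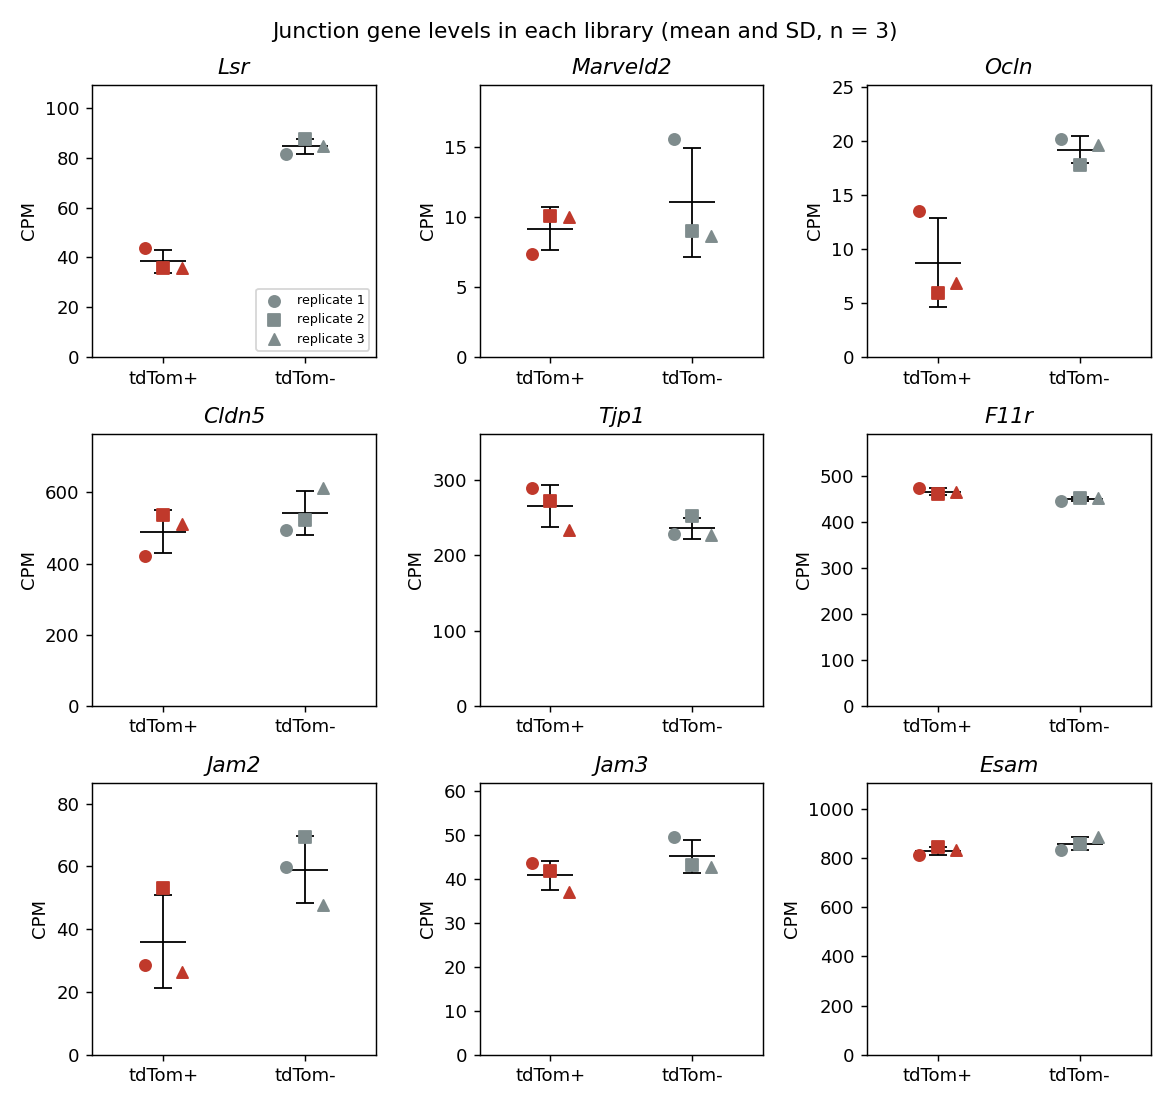
Each panel plots 1 gene, with the level of each library in CPM on the vertical axis from 0 and the 2 groups on the horizontal axis; points are libraries, shapes are replicate numbers, and bars are the mean and SD of 3. Lsr sits at 35.6 to 43.8 CPM in tdTom+ and 81.3 to 87.4 CPM in tdTom- libraries, while the groups of Cldn5, Tjp1 and Esam overlap.

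The tricellular gene Lsr (chromosome 7, 30957770 to 30973464, minus strand, GENCODE M21) had 499, 389 and 381 counts in tdTom+ and 838, 1032 and 758 in tdTom- libraries, each in the order of the replicate numbers 1 to 3, an order kept for every gene. These were 43.8, 35.6 and 35.6 CPM against 81.3, 87.4 and 84.9 CPM. All tdTom+ libraries were far below all tdTom- libraries, and the gap between the groups was wider than the range within either. The means were 38.3 ± 4.71 and 84.5 ± 3.05 CPM (SD, n = 3). The log2 fold change was -1.14 ± 0.13 (SE, 95% interval -1.43 to -0.85, edgeR adjusted p = 0.00187), so that tdTom+ cells held 45.4% of the tdTom- level. The call held in each of 13 alternative analyses (adjusted p from 2.63e-11 to 0.0226), and Lsr ranked 25 of 13142 genes by p. Within the tdTom- group its counts varied little more than counting error allows, with a chi-square per degree of freedom of 1.202, against 6.46 within the tdTom+ group.

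Marveld2 (chromosome 13, 100595957 to 100616971), the gene of the protein that joins angulin-1 at tricellular contacts, had 84, 110 and 107 counts in tdTom+ against 160, 106 and 77 in tdTom- libraries. The groups overlapped, and 1 library, tdTom- replicate 1, was above the other 5. The log2 fold change was -0.27 ± 0.32 (SE, 95% interval -0.99 to 0.44, edgeR adjusted p = 0.86), and it was 0.06 without tdTom- replicate 1. Lsr stood at 594, 354 and 356 counts per 100 Marveld2 counts in tdTom+ and 524, 974 and 984 in tdTom- replicates 1 to 3. This ratio overlapped between the groups, through replicate 1 of each (exact two-sided permutation p = 0.2, adjusted p = 0.267 over 4 ratios). As 0.1 is the smallest p that 3 against 3 allows, this test could not pass whatever the values. It therefore cannot decide whether the tricellular genes differed from each other.

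The strand gene Ocln (chromosome 13, 100496507 to 100552718), encoding occludin, lies 43238 bases from Marveld2 with no protein-coding gene between them. It had 154, 65 and 73 counts in tdTom+ against 208, 210 and 176 in tdTom- libraries, or 13.5, 5.95 and 6.82 CPM against 20.2, 17.8 and 19.7 CPM. Every tdTom+ library was below every tdTom- library, and tdTom+ replicate 1 lay about midway between the groups. The tdTom- libraries varied no more than counting error, with a chi-square per degree of freedom of 0.938, while the tdTom+ libraries gave 21.7. The log2 fold change was -1.13 ± 0.32 (SE, 95% interval -1.84 to -0.42), which did not pass (edgeR adjusted p = 0.149). Over 13 alternatives the adjusted p ran from 0.0351 to 0.449. The difference passed without tdTom+ replicate 1 (log2 fold change -1.59, edgeR adjusted p = 0.0351) and with DESeq2 (adjusted p = 0.0426), a tool that called 3.33% of the genes it tested. The authors' deposited table gives Ocln a log2 fold change of -1.13 in this direction and an adjusted p of 0.0427. Their listed tools include DESeq2 and the counts are the same, so this is no result separate from the DESeq2 one.

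Cldn5 (chromosome 16, 18776847 to 18778262), the endothelial claudin gene, had 4811, 5863 and 5460 counts in tdTom+ against 5094, 6158 and 5468 in tdTom- libraries. Levels of 422 to 537 CPM and 494 to 612 CPM overlapped. The log2 fold change, -0.15 ± 0.10 (SE), missed the threshold with an edgeR adjusted p of 0.704, and its 95% interval of -0.38 to 0.08 leaves out a fall as large as that of Lsr. Measured within each library, Lsr stood at 10.4, 6.64 and 6.98 counts per 100 Cldn5 counts in tdTom+ and 16.5, 16.8 and 13.9 in tdTom- replicates 1 to 3. The groups of this ratio did not overlap (exact two-sided permutation p = 0.1, the smallest possible, adjusted p = 0.2 over 4 ratios). The ratio uses no scaling between libraries.

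The scaffold gene Tjp1 (chromosome 7, 65296165 to 65527781) had 3295, 2976 and 2502 counts in tdTom+ against 2353, 2970 and 2029 in tdTom- libraries. It was the member with the largest positive difference, with 265 ± 28.3 and 236 ± 13.7 CPM (SD, n = 3). The groups overlapped, and the log2 fold change of 0.17 ± 0.09 (SE, 95% interval -0.03 to 0.37) did not pass (edgeR adjusted p = 0.581).

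Of the adhesion molecule genes, Jam2 differed most. Jam2 (chromosome 16, 84774123 to 84825928), encoding JAM-B, had 327, 581 and 281 counts in tdTom+ against 616, 819 and 427 in tdTom- libraries. These were 28.7, 53.2 and 26.3 CPM against 59.8, 69.3 and 47.8 CPM, so that the groups overlapped through tdTom+ replicate 2. Replicate 2 was the highest library in both groups. The log2 fold change was -0.71 ± 0.26 (SE, 95% interval -1.28 to -0.15), which did not pass (edgeR adjusted p = 0.296). It passed without tdTom+ replicate 2 (-1.10, edgeR adjusted p = 0.0232), and over 13 alternatives the adjusted p ran from 0.0232 to 0.741.

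Jam3 (chromosome 9, 27097384 to 27155421), encoding JAM-C, a binding partner of JAM-B, had 497, 456 and 397 counts in tdTom+ against 511, 511 and 382 in tdTom- libraries. Its groups overlapped, with 40.8 ± 3.34 and 45.2 ± 3.79 CPM (SD, n = 3) and a log2 fold change of -0.15 ± 0.14 (SE, 95% interval -0.47 to 0.17, edgeR adjusted p = 0.808). Jam2 stood at 65.8, 127 and 70.8 counts per 100 Jam3 counts in tdTom+ and 121, 160 and 112 in tdTom- replicates 1 to 3. This ratio also overlapped through tdTom+ replicate 2 (exact two-sided permutation p = 0.3, adjusted p = 0.3 over 4 ratios).

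F11r and Esam were the steadiest members. F11r (chromosome 1, 171437535 to 171464603), encoding JAM-A, had 473, 459 and 464 CPM in tdTom+ and 445, 451 and 452 CPM in tdTom- replicates 1 to 3. Its groups did not overlap, yet the difference was 1.04-fold, with a log2 fold change of 0.05 ± 0.06 (SE, 95% interval -0.08 to 0.19, edgeR adjusted p = 0.865). Esam (chromosome 9, 37528078 to 37538319), an endothelial cell adhesion gene, had 813, 845 and 833 CPM in tdTom+ and 834, 858 and 887 CPM in tdTom- replicates 1 to 3. Its groups overlapped, and its log2 fold change was -0.05 ± 0.06 (SE, 95% interval -0.18 to 0.08, edgeR adjusted p = 0.858). The coefficient of variation was 0.799% to 3.08% within the groups of these genes, against 41.3% for Jam2 and 47.2% for Ocln in tdTom+ libraries.

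**Figure D2:**
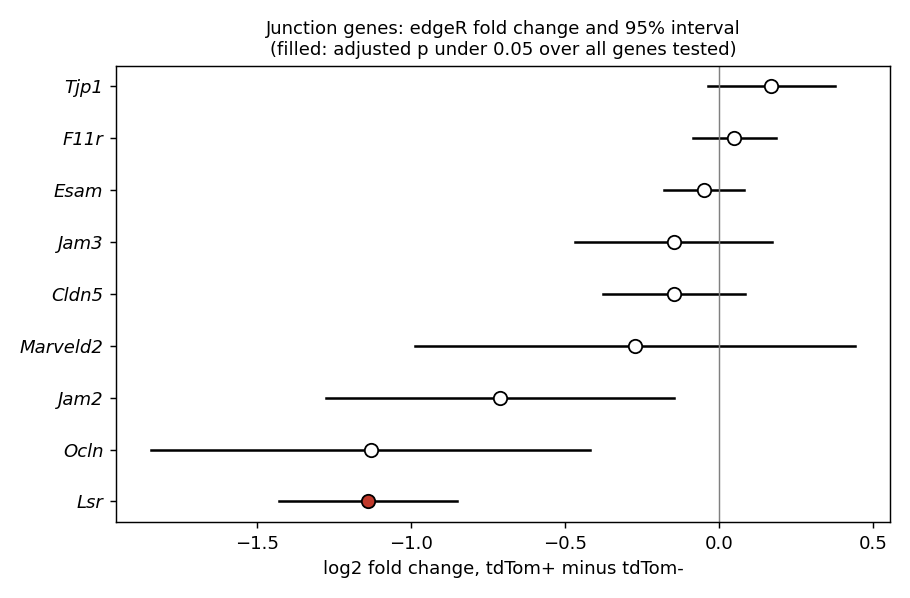
Points show the edgeR log2 fold change (tdTom+ minus tdTom-, horizontal axis) of each gene and lines its 95% interval; a filled point has an adjusted p under 0.05 over all genes tested. Lsr is the filled point at -1.14, and the intervals of Lsr, Ocln and Jam2 lie wholly below 0.

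A ratio within each library gave the same order. Per 100 summed counts of 8 endothelial marker genes, Lsr stood at 0.605 ± 0.0873 in tdTom+ and 1.35 ± 0.0574 in tdTom- libraries (SD, n = 3), and Ocln at 0.139 ± 0.0687 and 0.307 ± 0.0255. Neither overlapped between the groups (exact two-sided permutation p = 0.1, the smallest possible, adjusted p = 0.3 over 9 genes for each). F11r, whose CPM did not overlap, overlapped on this scale, and Esam, whose CPM overlapped, did not, at 13.09 ± 0.0435 against 13.7 ± 0.758. Counted per Pecam1 alone, the log2 ratios of Cldn5, Jam3 and Esam were 0.03, 0.01 and 0.12, so the direction of their small differences depends on the scaling.

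Levels between genes were compared per length, as CPM per kilobase of annotated exon (GENCODE M21), since longer transcripts give more reads. In tdTom- libraries the order was Cldn5 (349 to 432), Esam (291 to 309), F11r (167 to 170), Lsr (37.4 to 40.2), Tjp1 (29.1 to 32.2), Jam3 (13.4 to 15.5), Jam2 (7.91 to 11.5), Ocln (4.21 to 4.78) and Marveld2 (2.55 to 4.59). Only the last neighbours, Ocln and Marveld2, overlapped. In tdTom+ libraries Lsr was below Tjp1, at 16.4 to 20.2 against 29.9 to 37.0, and the other order down to Jam2 was as in tdTom-. Ocln, at 1.41 to 3.20, and Marveld2, at 2.18 to 2.98, were again the only neighbours that overlapped. Lsr was thus above the scaffold gene Tjp1 in 3 of 3 tdTom- libraries and below it in 3 of 3 tdTom+ libraries. These values assume that the whole annotated exon length is transcribed, and the isoforms used were not measured.

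**Figure D3:**
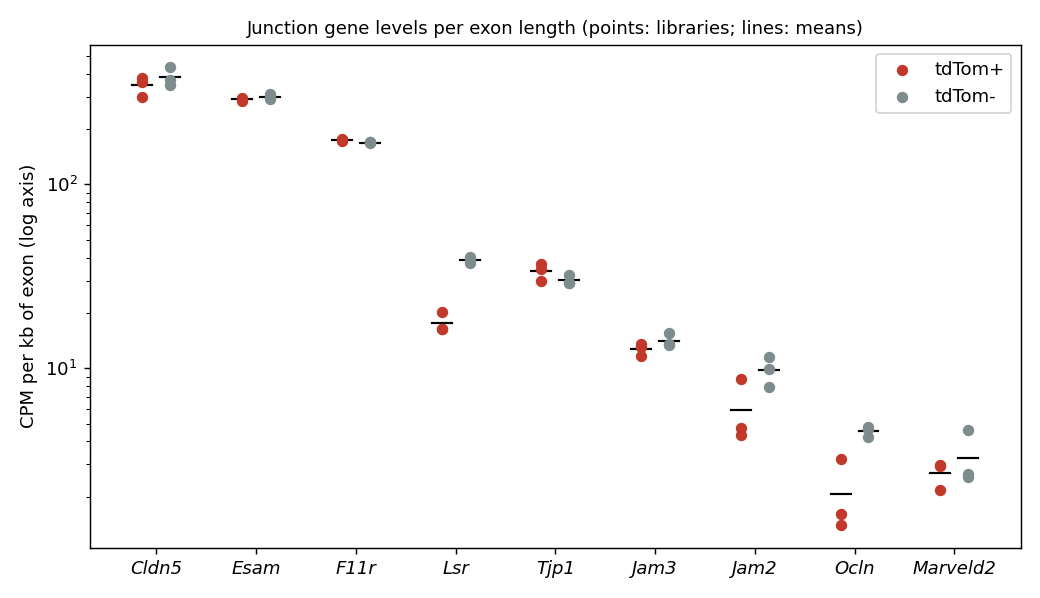
Levels per exon length (CPM per kb, logarithmic vertical axis) of the 9 genes, ordered by their mean in tdTom- libraries; points are libraries and lines are means of 3. Cldn5, Esam and F11r sit near or above 167, and Lsr crosses Tjp1 between the groups.

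Among other tight junction genes, none of those tested passed. Of all 13142 genes tested, 625 higher and 780 lower in tdTom+ had an unadjusted p under 0.05 (edgeR), to set beside such counts below. Of 23 claudin genes other than Cldn5, 15 were too low to test, 5 of them with 0 counts in every library, and 0 of the 8 tested passed (edgeR; 1 had an unadjusted p under 0.05), with a median log2 fold change of -0.02. Cldn12, a broadly expressed claudin gene, ranged from 190 to 428 counts in tdTom+ and from 167 to 338 in tdTom- libraries, and its log2 fold change was 0.05 ± 0.29 (SE). Cldn13 had 52, 62 and 40 counts against 12, 19 and 6 without overlap, but the difference, 1.999 ± 0.60 (log2, SE), missed the threshold (edgeR adjusted p = 0.179). The epithelial claudin genes Cldn3, Cldn6 and Cldn7 had at most 88 counts in any library and overlapped between the groups. The symbol Cldn25 is listed by RefSeq as an older name of 2 different genes, so its 1362 to 1734 counts cannot be assigned. Its row, with a log2 fold change of -0.097, is still among the 23 claudin genes and the 8 tested. The claudin median includes it, and the sign of that small median depends on it.

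The angulin genes related to Lsr were scarce. Ildr2 had 7, 2 and 2 counts in tdTom+ against 22, 23 and 27 in tdTom- libraries. Its groups did not overlap, but at these counts the difference of -2.80 ± 0.86 on the log2 scale (SE) missed the threshold (edgeR adjusted p = 0.194, and from 0.0916 to 0.593 over the alternatives that tested it). Ildr1 had 0 counts in tdTom+ libraries and 9, 4 and 0 in tdTom- libraries, too few to test. Cxadr, an adhesion receptor gene of the same family as the JAM genes, had a log2 fold change of 0.04 ± 0.47 and its relative Clmp one of -1.30 ± 0.49 (SE, edgeR adjusted p = 0.99 and 0.328). Of the 3 tested genes of this list of other strand and tricellular genes 0 passed (2 had an unadjusted p under 0.05). Their median, -1.30, is the value of Clmp, whose groups overlapped.

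Of 21 tested scaffold and polarity genes 0 passed (edgeR; 1 had an unadjusted p under 0.05), and their median log2 fold change was 0.04. Cgnl1, encoding paracingulin, and Mllt4, encoding afadin, had log2 fold changes of -0.13 ± 0.10 and -0.04 ± 0.10 (SE).

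Of 12 adherens junction genes 1 fell, 0 rose and 11 did not pass (1.58% of all genes tested were called), with a median of -0.01. The gene that fell was Cdh2, encoding N-cadherin, with 634, 710 and 642 counts in tdTom+ against 1212, 1205 and 879 in tdTom- libraries. It differed by -0.82 ± 0.12 (log2, SE; edgeR adjusted p = 0.00741). The call was lost without tdTom- replicate 1 (-0.73, edgeR adjusted p = 0.0606; over 13 alternatives from 4.4e-07 to 0.0606). N-cadherin is also made by neural and mesenchymal cells, whose summed markers were at 48.0 to 70.5 and 102 to 387 CPM in tdTom+ and 85.6 to 99.5 and 236 to 702 CPM in tdTom- libraries. Their part in the Cdh2 difference was not tested. Cdh5, the endothelial cadherin gene, was at 555 and 495 CPM on average, a difference of 0.17 ± 0.08 (log2, SE; edgeR adjusted p = 0.534). Pvrl3, encoding nectin-3, differed by -0.50 ± 0.13 (log2, SE; edgeR adjusted p = 0.122), and passed only with DESeq2 (adjusted p = 0.0396).

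**Figure D4:**
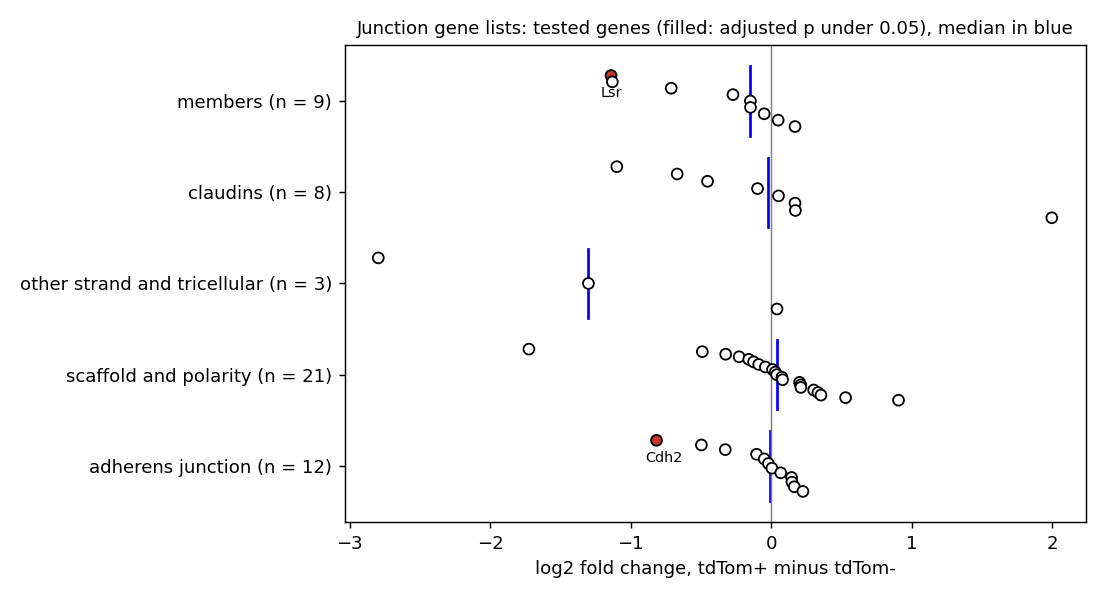
Each point is a tested gene at its edgeR log2 fold change (tdTom+ minus tdTom-, horizontal axis), in rows by gene list; filled points have an adjusted p under 0.05 and blue lines are list medians. Lsr and Cdh2 are the filled points, and 3 of the medians lie within 0.05 of 0.

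Brain endothelial markers were lower in tdTom+ cells together with Lsr, which is itself a gene of that endothelium. Of 12 such markers, not counting Lsr, 11 were tested, 5 fell (1.58% of all genes tested were called), 0 rose, and the groups did not overlap in 11 of 11 (17.2% of all genes tested). These were chosen with earlier results of the same data known and are no independent evidence. Their summed level was 1318, 1632 and 1442 CPM in tdTom+ and 2118, 2079 and 2202 CPM in tdTom- replicates 1 to 3, and their median log2 fold change was -0.86. In bulk RNA, fewer cells of a type and less RNA per cell cannot be told apart. Per 100 of these marker counts, Lsr stood at 3.32, 2.18 and 2.47 in tdTom+ and 3.84, 4.20 and 3.85 in tdTom- libraries, a ratio chosen after the values were seen. It was lower in all tdTom+ libraries (exact two-sided permutation p = 0.1, the smallest possible, adjusted p = 0.2 over 4 ratios). Liver sinusoidal markers moved the other way, at 2427 to 2813 CPM in tdTom+ and 972 to 1085 CPM in tdTom- libraries. The part of these vessel types in the Lsr difference was not tested.

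Lsr, Ocln and Marveld2 are also epithelial genes, and epithelial RNA differed between libraries. The summed level of 12 epithelial markers was 90.2, 24.4 and 3.37 CPM in tdTom+ and 43.0, 73.7 and 42.1 CPM in tdTom- replicates 1 to 3, and 0 of the 10 tested passed (edgeR; 2 had an unadjusted p under 0.05, both lower). Epcam had 70, 16 and 0 counts against 100, 160 and 109, and Krt8 had 319, 86 and 0 against 79, 115 and 31. The tdTom+ library with the most epithelial RNA, replicate 1, was also the one with the most Lsr and Ocln of its group. Marveld2 went the other way and was lowest there, at 7.37 CPM against 10.07 and 10 CPM in tdTom+ replicates 2 and 3. In tdTom+ replicate 3, where Lsr had 381, Ocln 73 and Marveld2 107 counts, 5 of the 12 markers were at 0 (Epcam, Krt8, Esrp1, Esrp2 and Grhl2) and the others had 1 to 13 counts, the most in Krt19 and Spint1. Without tdTom+ replicate 1 the Lsr log2 fold change was -1.25 (edgeR adjusted p = 0.00433). Hepatoblast markers were at 3.95 to 25.7 CPM in tdTom+ and 16.1 to 171 CPM in tdTom- libraries, and germ cell markers at 2.11 to 2.90 and 48.5 to 91.1 CPM, with Dazl and Dppa3 at 0 counts in all tdTom+ libraries. Embryonic germ cells carry KIT, which the sort selected against, yet Dazl had 183, 255 and 279 counts in tdTom- libraries. The part of epithelial, hepatoblast and germ cell RNA in the Lsr and Ocln differences was not tested.

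**Figure D5:**
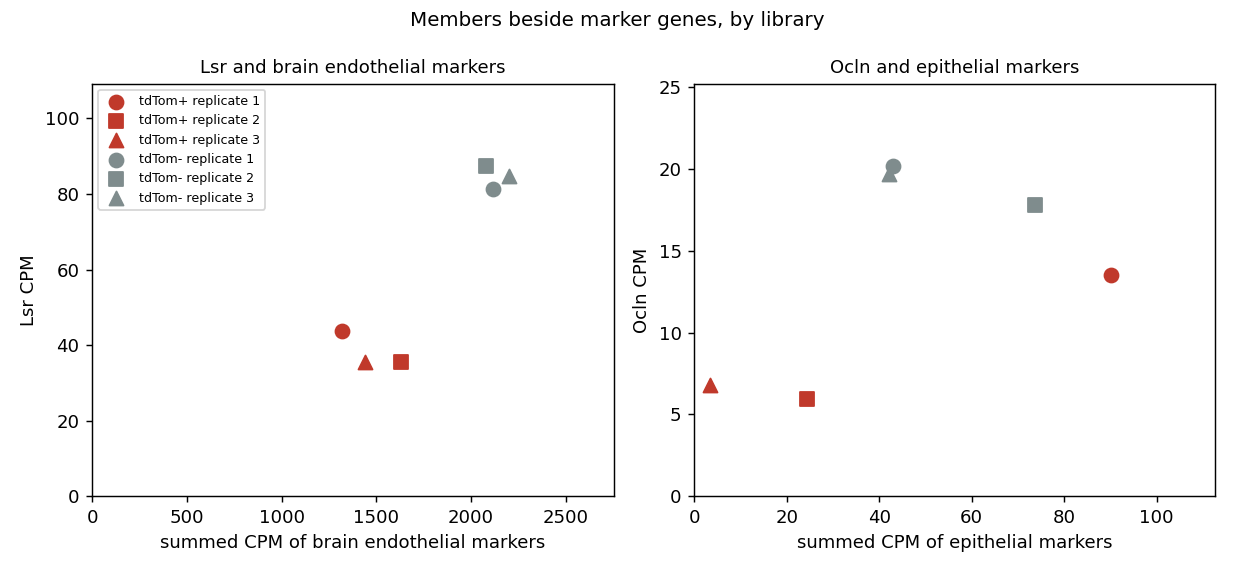
Left, Lsr (CPM, vertical axis) beside the summed CPM of 12 brain endothelial markers (horizontal axis); right, Ocln beside the summed CPM of 12 epithelial markers; each point is a library. The tdTom+ libraries lie lower left of the tdTom- libraries for Lsr, and tdTom+ replicate 1 has the highest epithelial sum, 90.2 CPM, and the highest Ocln of its group. In contrast, tdTom- replicate 2 has the highest epithelial sum of its group, 73.7 CPM, and the lowest Ocln.

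Megakaryocyte and platelet markers were higher in tdTom+ libraries, at 322 to 591 CPM against 84.1 to 103 CPM, and 6 of the 12 tested rose (1.58% of all genes tested were called in either direction). This list too was chosen with earlier results of the same data known. The junction genes that platelets also carry, F11r, Jam3 and Esam, had log2 fold changes of 0.05, -0.15 and -0.05 in the same libraries, and none of them passed. Macrophage and blood cell markers were at 19.2 to 27.4 and 14.6 to 17.6 CPM.

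Among 10077 genes whose log2 CPM averaged 3 or more, those whose log2 CPM followed Lsr most closely over the 6 libraries were Gli3 (Pearson r = 0.989), Ids (0.987), Ptgis (0.986), Gemin4 (0.986) and Cpe (0.986), and 51 genes had r above 0.95. Gli3, a transcription factor gene, and Ptgis, the prostacyclin synthase gene, were lower in tdTom+ cells, by -0.995 ± 0.18 and -0.76 ± 0.16 (log2, SE; edgeR adjusted p = 0.0229 and 0.0457). Ids, Gemin4 and Cpe had -0.57, -0.42 and -0.32 and did not pass. With 3 libraries a group, r mostly reflects the difference between the groups. Among the members, Ocln followed Lsr most closely, with r = 0.925 over the same libraries. The r between Ocln and its neighbour Marveld2 was 0.111.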

How the data were processed

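Endothelial RNA was amplified with the SMART-seq v4 kit and made into Nextera XT libraries, per the labels' protocols. Strand is not kept by this kit, so reads of overlapping antisense genes, annotated at Lsr and Jam3, cannot be told apart from those of the members. The genome build is mm10, and the submitters' processing notes list featureCounts 1.4.6, STAR 2.5.2b, DESeq2, Trimmomatic 0.36.4 and Picard 2.7.1.1 among the tools. The authors deposited whole-number read counts per gene symbol, without normalization, and their own log2 fold changes and p-values, per the file headers as tdTom- over tdTom+, turned round here. Groups come from the titles. Totals were 8919887 to 11767956 counts per library, so that 3 counts equal 0.255 to 0.336 CPM. Reads carry no molecular identifiers, so counts are not counts of independent molecules.

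Differences were tested in R 4.3.3 by edgeR 4.0.16 (TMM, filterByExpr with minimum count 10, robust quasi-likelihood F-test, two-sided, no block), and p-values were adjusted by Benjamini-Hochberg across 13142 genes, called under 0.05. SEs are the log2 fold change divided by the root of F. CPM uses TMM-scaled library sizes. The fit was tested on simulated data, with 50 changed genes at each size. It recovered 34% of 1.5-fold, 60% of 2-fold, 84% of 4-fold and 94% of 8-fold changes, and 7.48% of its calls were false. A gene that did not pass is thus not shown to be unchanged. Alternatives were DESeq2 1.42.0, limma-voom (limma 3.58.1), other scalings and filters, the replicate block, and leaving out each library. The protocol says that 3 embryos were divided into both fractions, so the groups share embryos. It ties no replicate number to an embryo, so libraries were not paired. The main test and the permutation tests thus treat as independent libraries that share embryos. The labels say nothing more of each library's source, and p-values measure the spread between these libraries. Library pairs of a group differed beyond sampling noise (mean chi-square per gene 8.18 to 19.8). The 9 members, the lists and the tests were chosen with earlier results of these data known. A result on 1 gene is not reported here. Genes named are the members, list genes that passed or had the smallest p, and the 5 most like Lsr; Cldn3, Cldn6, Cldn7, Cldn12, Cldn25, Ildr1, Cgnl1, Mllt4, Krt8 and the marker genes beside a result were added after their values were seen.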

Additional observations from a re-analysis of the deposited data

How the results depend on the processing

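The fall of Lsr passed in 13 of 13 alternatives, with log2 fold changes from -1.25 to -1.09. The number of members that passed was 1, and it was 2 with DESeq2, 2 with the replicate block, and 1 to 2 when a library was left out; the added gene was Ocln (DESeq2, or without tdTom+ replicate 1) or Jam2 (block, or without tdTom+ replicate 2). With the block, Jam2 was at -0.76 ± 0.17 (SE, edgeR adjusted p = 0.0415), no other call among the members changed, and 295 of all genes passed. Deviations from the group means correlated at r = 0.11, 0.09 and 0.16 in same-numbered libraries and at -0.15 to 0.06 in the others. Each library thus correlated best with its own number, although 1 of the 3 values is under 0.1. The female-expressed gene Xist had 1224 and 571 counts in tdTom+ and tdTom- replicate 3 and 0 to 8 in the other libraries. Y-linked Ddx3y had 12 and 2 counts in replicate 3 and 1204 to 1537 in the others. Sex thus also matched by number, but it does not separate numbers 1 and 2. By the protocol both fractions came from the same embryos, so the groups are not independent whatever the numbers mean. If each library is from 1 of these embryos, both replicate 3 libraries came from the same embryo. For numbers 1 and 2 the match is a hint from the data and not from the design. The main test and the permutation tests ignore the shared embryos, and the block pairs them rightly only if the numbers mark embryos. Among the fold changes of the members over these 13 alternatives, the single reversal was Marveld2, at 0.057 without tdTom- replicate 1, within a range of -0.42 to 0.057 when a library was left out. Of the other junction genes 1 passed, 2 did with DESeq2, and 0 to 1 did without a library. Over all genes 208 passed, 502 did with DESeq2, and 62 to 189 did without a library: 126 without tdTom+ replicate 1, and 83, 71 and 62 without tdTom- replicates 1, 2 and 3. Scaling by endothelial marker counts moved the median log2 fold change of all genes from -0.0003 to -0.04. As log2 ratios of group means per endothelial count, Lsr was at -1.16, and at -0.98 per Pecam1 count and -0.58 per brain endothelial marker count, the last chosen after the data were seen. Per Pecam1 count, Cldn5, Tjp1, F11r, Jam3 and Esam were at 0.03, 0.33, 0.22, 0.01 and 0.12, against -0.17, 0.15, 0.03, -0.16 and -0.07 per summed endothelial count, so that 3 of them changed sign. Ocln was at -1.14, and at -1.62 without tdTom+ replicate 1. The cause of these shifts was not tested. Depth gave 65 to 210 Ocln and 77 to 160 Marveld2 counts a library.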
